A study of Mus musculus with 12 samples.

Results

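Adenosine deaminase (Ada) and 5 further genes of purine breakdown and nucleoside uptake, Nt5e, Slc28a2, Enpp3, Pnp and Xdh, were followed across the mouse duodenal epithelium by RNA polymerase II (Pol II) occupancy. The genes were listed by name, and all 6 were found among the 6429 genes present in both of the authors' deposited tables of comparisons. The list was selected on pathway names together with the deposited fold changes of both comparisons, so the members' own differences are given as a description and support no test. Pol II ChIP-seq, in which DNA bound by the polymerase is immunoprecipitated and sequenced, was made from adult duodenal epithelium that had been released with EDTA and divided by a filter into villi and crypts. Per the labels, 3 Pol II libraries each came from wild-type (WT) villi, from WT crypts and from villi of Hnf4αγ double-knockout (DKO) animals, with 1 input library for each group. The DKO mice received tamoxifen at 50 mg per kg per day on 2 days and were killed 1 day after the last dose, whereas WT mice received the oil and ethanol vehicle. EDTA treatment lasted 25 minutes for mutant and 35 minutes for WT tissue. The effects of genotype, of tamoxifen and of the EDTA time cannot be told apart between WT and DKO villi. The Cre driver and the deleted exons are not given in the sources used here.

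Purine nucleotides released by cells or taken in with food are broken down in steps. Ectoenzymes on the cell surface split ATP to AMP and AMP to adenosine, concentrative transporters carry the nucleosides into the enterocyte, and ADA, purine nucleoside phosphorylase and xanthine dehydrogenase then convert adenosine through inosine and hypoxanthine to uric acid. In the mouse, ADA is a characteristic enzyme of the villus epithelium of the upper small intestine. HNF4A and HNF4G are related nuclear receptors that act as transcription factors in enterocytes.

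The promoters are shown first, as a description of the members' sequences. RefSeq promoter sequences of the GRCm38.p6 build were matched for 5 of the 6 members, all but Xdh, and the 250 bases before the annotated start were read. The Ada promoter, at the gene with the largest difference, lies at chr2:163750240-163750489 on the minus strand. The promoters of Slc28a2 (chr2:122426185-122426434, plus strand) and Enpp3 (chr10:24836196-24836445, minus strand) are set beside it because they were the member promoters that held any of the motif letters searched. The Slc28a2 gene of GRCm38 is longer than its deposited window (34796 bp against a body window of 19467 bp). Judged by the shift of Ada between the builds, its annotated start lies upstream of the windowed start. The Slc28a2 sequence is therefore not that of the windowed start. Capitals mark exact matches to the motif letters on either strand.
Ada: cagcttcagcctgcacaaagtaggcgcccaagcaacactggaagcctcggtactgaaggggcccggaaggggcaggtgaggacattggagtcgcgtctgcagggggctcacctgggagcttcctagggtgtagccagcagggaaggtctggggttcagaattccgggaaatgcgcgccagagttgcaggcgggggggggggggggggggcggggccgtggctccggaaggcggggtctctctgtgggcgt
Slc28a2: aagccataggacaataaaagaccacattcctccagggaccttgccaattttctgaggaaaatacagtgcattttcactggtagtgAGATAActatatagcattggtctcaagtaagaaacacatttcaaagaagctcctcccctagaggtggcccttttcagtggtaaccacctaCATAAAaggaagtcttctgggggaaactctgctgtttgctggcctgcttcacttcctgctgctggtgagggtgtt
Enpp3: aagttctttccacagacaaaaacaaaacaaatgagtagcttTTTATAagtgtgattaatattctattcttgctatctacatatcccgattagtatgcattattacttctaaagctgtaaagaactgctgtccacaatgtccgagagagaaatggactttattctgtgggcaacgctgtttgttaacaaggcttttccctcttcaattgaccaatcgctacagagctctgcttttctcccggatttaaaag

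These promoters differed in base composition. The Ada promoter had 67.2% G and C, 14 CpG dinucleotides and a run of 19 consecutive G bases. The Nt5e promoter was the richest of the matched members, at 72% G and C with 21 CpG. By contrast, the Pnp promoter had 46.8% and 11 CpG, the Slc28a2 promoter 45.2% and 0 CpG, and the Enpp3 promoter 36.8% and 5 CpG. Over the 5161 matched promoters of genes in the deposited tables, the median was 59.6% with 16 CpG, so Ada and Nt5e lay above that median in G and C and Pnp, Slc28a2 and Enpp3 below it.

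The HNF4 letters CAAAGTCCA were found in none of the 5 member promoters and in 0.384% of the 32851 promoters of the reference table (0.504% of the 5161 promoters of genes in the deposited tables). With 1 mismatch allowed, Enpp3 alone held them, as TGGACTTTA on the opposite strand at positions -99 to -91 counted from the start, and 7.05% of all promoters and 6.61% of those of genes in the tables held such a match. The palindromic HNF1 consensus was in none of the 5 and in 0.00913% of all promoters, all 3 of them outside the genes in the tables. Positions in Slc28a2 count from its GRCm38 start and not from the start of the deposited windows. There the GATA letters AGATAA lay at -165 to -160 (held by 9.99% of all promoters and 5.97% of those of genes in the tables). The CDX2 letters TTTATG lay on the opposite strand of Slc28a2 at -75 to -70 (10.8% and 6.18%). Enpp3 held the TATA box letters TATAAA on the opposite strand at -209 to -204 (12.4% and 7.52%). None of the searched motifs overlapped another in these windows. A match is a run of letters only, and its absence says nothing of binding in these windows or outside them.

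Before the members, the targeted genes were read as a check of the labels. Hnf4a carried more Pol II in villi labelled DKO, at -0.54 ± 0.14 (SE) for log2 of WT over DKO in the authors' deposited table. For Hnf4g the authors' deposited table gave -1.45 ± 0.22. Hnf4aos, a noncoding gene whose windows overlap those of Hnf4a on the opposite strand, had less Pol II in those villi, with 0.65 ± 0.09 in the authors' deposited table, and without strand the signals of this pair cannot be told apart. Hnf4a and Hnf4g thus showed no lower Pol II signal in the libraries labelled DKO, and each direction between genotypes below rests on the deposited table's name and these labels. Pol II over a whole gene need not report on a deleted part of it. Of the 12 enterocyte markers looked up, 11 were in the tables. The authors' deposited tables called all 11 higher in WT villus, against crypt and against labelled-DKO villus, with median log2 fold changes of 1.55 and 2.38. Of 8 proliferation markers 2 were in the tables, and the authors' deposited tables called both lower in WT villus in each comparison. Crypt stem cell markers were mixed, with 3 of 8 in the tables, of which the authors' deposited tables called 1 (Sp5) higher and 2 lower in WT villus against crypt, and 1 (Sp5 again) higher and 1 lower against labelled-DKO villus. Of 8 secretory markers 5 were in the tables, and the authors' deposited tables called 2 higher and 2 lower against crypt, and 0 higher and 2 lower against labelled-DKO villus. Of 9 immune markers 3 were in the tables and 1, Cd74, was called, higher in WT villus in both comparisons. The 8 markers of mesenchyme and endothelium were not among the genes tested. In bulk tissue, fewer cells of a type and less Pol II per cell cannot be told apart, and the part of these markers' differences in those of the members was not tested.

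The values are the authors' DESeq2 results. They give for each gene the mean signal in size-factor-normalised counts, which was identical in both tables, a log2 fold change and its SE (printed after ±), with no breakdown by library. Villus over crypt is called the zone comparison below, and WT over labelled-DKO villus the genotype comparison. Both use the WT villus libraries, so they are not independent of each other. A gene was called where the deposited Benjamini-Hochberg adjusted p was under 0.05. Mean signals of the 3 groups were rebuilt from the deposited mean and both fold changes, assuming that the mean covers the 3 groups in equal parts. They carry no error of their own. Since the counted window is not stated, their sizes are not compared between genes, only each gene's ratios between groups.

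Across the members, Pol II signal was highest in WT villus. The zone comparison in the authors' deposited table called 5 of the 6 members, all 5 higher in villus, where 18.6% of all genes were called higher and 37.4% in either direction. The genotype comparison in the authors' deposited table called all 6 higher in WT, where 22.4% of all genes were called higher and 51.9% in either direction. With a log2 fold change over 1 in addition, 4 members passed in the zone comparison (3.52% of all genes) and 5 in the genotype comparison (6.53%). The median log2 fold change of the members was 1.28 in the zone comparison (all genes -0.04) and 1.65 in the genotype comparison (all genes -0.08). Because the members were chosen with these comparisons known, nothing is read from these shares.

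**Figure D1:**
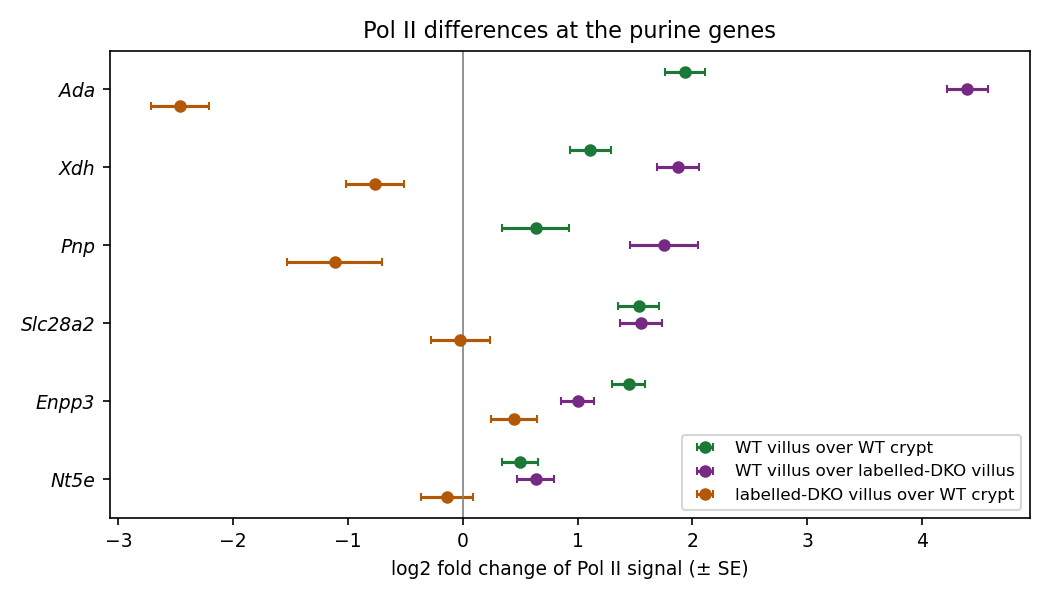
Log2 fold change of Pol II signal (x axis) for the 6 members in the 3 comparisons, with points at the estimate and bars of 1 SE. All values of the zone and genotype comparisons lie to the right of 0, and Ada reaches 4.39, while the labelled-DKO over crypt values run from -2.46 at Ada to 0.44 at Enpp3.

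Ectoenzymes come at the head of the pathway. Enpp3 encodes a surface nucleotide pyrophosphatase that hydrolyses extracellular ATP. Its rebuilt mean signal was 1627 in WT villus, 598 in WT crypt and 813 in labelled-DKO villus. Enpp3 had a log2 fold change of 1.44 ± 0.14 in the zone comparison of the authors' deposited table (95% interval 1.16 to 1.73). For the genotype comparison the authors' deposited table gave 1.00 ± 0.14 (0.72 to 1.28). Enpp3 was the member whose labelled-DKO level was numerically above its crypt level. Nt5e encodes CD73, the ectonucleotidase that converts AMP to adenosine. Its rebuilt signals were 384 in WT villus, 273 in crypt and 248 in labelled-DKO villus. Relative to WT villus this was the narrowest spread of the 6 members. Nt5e had log2 fold changes of 0.50 ± 0.16 and 0.63 ± 0.16 in the authors' deposited tables, the smallest of the members in each.

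Slc28a2 encodes the concentrative nucleoside transporter CNT2, which takes up purine nucleosides together with sodium. Its rebuilt signal was 455 in WT villus, 157 in crypt and 155 in labelled-DKO villus. The groups other than WT villus lay almost level, at 34.6% and 34.1% of the WT villus signal. The authors' deposited tables gave log2 fold changes of 1.53 ± 0.18 over crypt and 1.55 ± 0.18 over labelled-DKO villus.

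Ada, which deaminates adenosine to inosine, showed the widest range of the members relative to the WT villus signal. Its rebuilt signal was 1749 in WT villus, 458 in crypt and 83.2 in labelled-DKO villus. The labelled-DKO level was thus 4.76% of the WT villus level and 18.2% of the crypt level. By the authors' deposited table Ada was 3.82-fold higher in villus than in crypt, a log2 fold change of 1.93 ± 0.18 (95% interval 1.59 to 2.28), which ranked 12 from the top of all genes. Between the genotypes the authors' deposited table gave 4.39 ± 0.18 (4.04 to 4.75), a 21-fold difference that ranked 2 from the top.

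Pnp encodes purine nucleoside phosphorylase, which splits inosine and guanosine to free bases. Its rebuilt signal was 217 in WT villus, 139 in crypt and 64.3 in labelled-DKO villus, and its SE was the largest of the members at the lowest mean signal, 140 over all libraries. Pnp was not called in the zone comparison of the authors' deposited table, with 0.63 ± 0.29 and a DESeq2 adjusted p of 0.0699. Between the genotypes the authors' deposited table gave 1.75 ± 0.29. Pnp2, an adjacent paralog that begins 11.8 kb downstream on the same strand, is a member of the wider list below, and reads from sequence that both copies share may not be assigned to 1 of them, so the values of both genes are uncertain to that extent. Pnp2 had 0.57 ± 0.39 over crypt, not called, and 2.56 ± 0.41 over labelled-DKO villus in the authors' deposited tables.

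Xdh encodes xanthine dehydrogenase, which forms uric acid from hypoxanthine and xanthine. Its rebuilt signal was 1584 in WT villus, 734 in crypt and 432 in labelled-DKO villus. The authors' deposited tables gave log2 fold changes of 1.11 ± 0.18 over crypt (95% interval 0.76 to 1.46) and 1.87 ± 0.18 over labelled-DKO villus (1.52 to 2.23). The labelled-DKO level was 27.3% of the WT villus level, close to the 29.7% of Pnp.

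**Figure D2:**
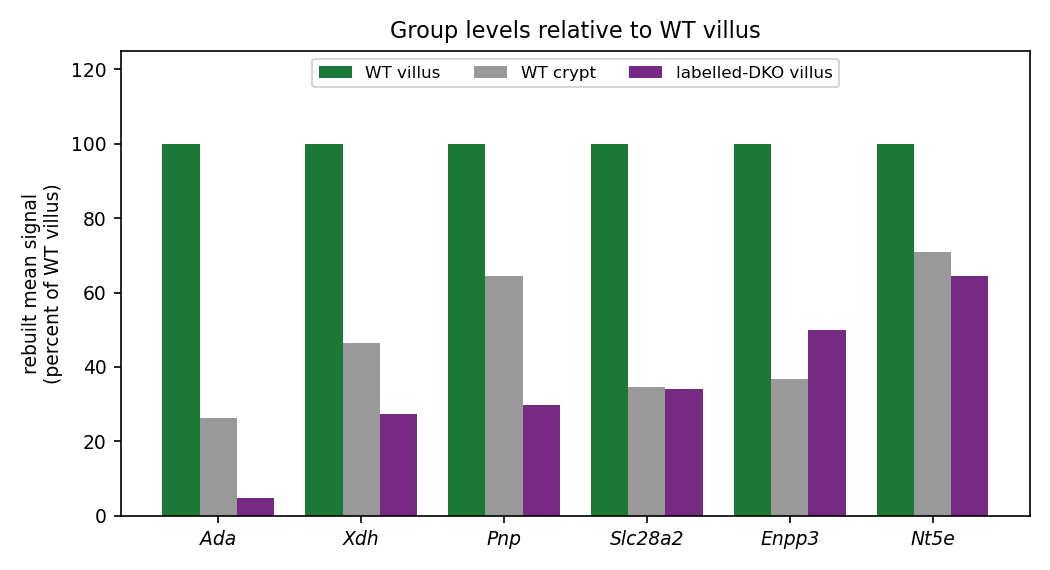
Rebuilt mean Pol II signal of each group as a percent of WT villus (y axis, from 0) for the 6 members; no values of single libraries are given, so there are no error bars. The labelled-DKO bar stands at 4.76% for Ada and 27.3% for Xdh, is level with crypt for Slc28a2, and is above the crypt bar for Enpp3 alone.

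The labelled-DKO villi were then set against WT crypt, as the difference of the deposited fold changes with the largest SE that independent library errors allow. Of the members 3 were called and all 3, Ada, Xdh and Pnp, were lower in labelled-DKO villus than in crypt, where 7.19% of all genes were called lower and 13.6% in either direction. A log2 value below -1 was also reached by 2 of them, Ada and Pnp, and by 1.66% of all genes. Ada stood at -2.46 ± 0.25, 4 from the bottom of all genes. Pnp followed at -1.12 ± 0.41, with an adjusted p of 0.0499 from this normal approximation adjusted over all genes, at the edge of the threshold. Xdh stood at -0.76 ± 0.25 (adjusted p 0.0251, likewise), and neither it nor Pnp passed an adjusted p under 0.01. The remaining members were not called. Their values were 0.44 ± 0.20 for Enpp3 (95% interval 0.05 to 0.84), -0.02 ± 0.26 for Slc28a2 (-0.52 to 0.48) and -0.14 ± 0.22 for Nt5e (-0.57 to 0.30). With an SE rebuilt from the squared SEs of both tables in place of the largest one, Enpp3 was called higher in labelled-DKO villus, and the share of all genes called in either direction went from 13.6% to 29.9%. All of these values derive from the comparisons used to choose the members and describe them only. The 11 enterocyte markers in the tables had a median of -0.77 for labelled-DKO villus over crypt, from -1.76 to 0.94. Of them 2 were called lower, 1 higher and 8 were not called.

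Ordered by size, few neighbours among the members stood apart. In the genotype comparison of the authors' deposited table, Ada exceeded Xdh, the next member, by 2.52 ± 0.26 on the log2 scale, and Slc28a2 exceeded Enpp3 by 0.55 ± 0.23. The other neighbours in that order, Xdh and Pnp, Pnp and Slc28a2, and Enpp3 and Nt5e, differed by less than 2 SE of their difference. For the zone comparison no neighbouring pair in the order Ada, Slc28a2, Enpp3, Xdh, Pnp, Nt5e differed by 2 SE in the authors' deposited table. For labelled-DKO villus over crypt, Pnp exceeded Ada by 1.34 ± 0.48 and the other neighbouring pairs differed by less than 2 SE. These SEs treat the errors of different genes as independent, although the genes were read in the same libraries.

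**Figure D3:**
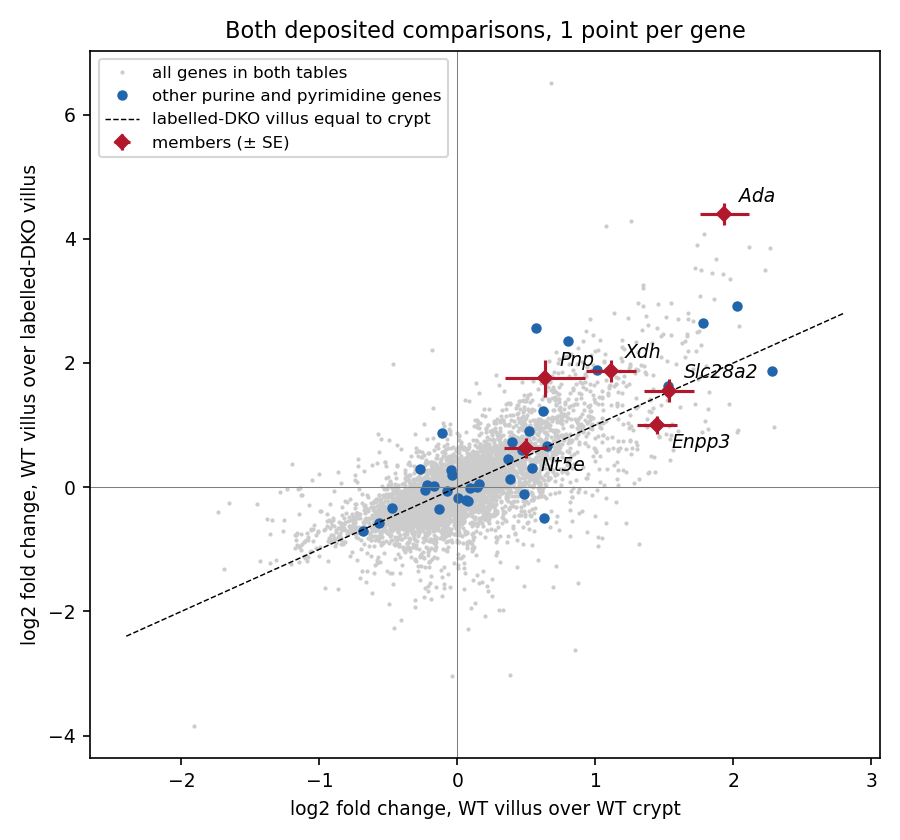
Log2 fold change of WT villus over WT crypt (x axis) against that of WT over labelled-DKO villus (y axis), 1 point per gene, with members in red with bars of 1 SE and other listed genes of nucleotide metabolism in blue. Both axes use the same WT villus libraries. Ada, Xdh and Pnp lie above the dashed line on which labelled-DKO villus equals crypt, Slc28a2 and Nt5e lie within 1 SE of it, and Enpp3 lies below it.

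Further genes of nucleotide metabolism were read from lists made by pathway and not for how single genes moved. Of 105 genes listed, 35 were in both tables. The zone comparison in the authors' deposited table called 15 higher in villus and 4 lower, where 18.6% and 18.8% of all genes were called. The genotype comparison in the authors' deposited table called 15 higher in WT and 3 lower, where 22.4% and 29.5% of all genes were called. Set against crypt, the labelled-DKO villi were higher at 1 gene and lower at 7, where 6.41% and 7.19% of all genes were called. The counts are a description, since the lists were drawn up with earlier results known.

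Purine breakdown and salvage was mixed. Of its 10 genes in the tables, the authors' deposited tables called 3 higher and 2 lower in the zone comparison, and 4 higher and 1 lower in the genotype comparison, with medians of 0.03 and -0.0048. Gda, guanine deaminase, which feeds xanthine to the enzyme encoded by Xdh, had log2 fold changes of 1.53 ± 0.17 and 1.63 ± 0.17 in the authors' deposited tables. Aprt, which salvages adenine, had 0.65 ± 0.12 and 0.66 ± 0.11 in the authors' deposited tables. Gmpr2, a guanosine monophosphate reductase, ran the other way in the authors' deposited tables, at -0.57 ± 0.13 and -0.58 ± 0.13. Pnp2, described above, had the largest difference of this list between the genotypes. The list therefore held breakdown and salvage genes that moved with the members and others that did not.

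The list of extracellular nucleotide hydrolysis was filled by gene family. Not all of its 9 genes in the tables encode enzymes that hydrolyse nucleotides outside the cell, Enpp7 and Entpd4 being examples. Over these 9 genes the authors' deposited tables called 6 higher and 0 lower in the zone comparison, and 5 higher and 1 lower in the genotype comparison, with medians of 0.62 and 0.87. Akp3 and Alpi, adjacent alkaline phosphatases of the brush border that also remove phosphate from nucleotides, had 2.28 ± 0.50 and 1.78 ± 0.46 over crypt in the authors' deposited table. Their sequences are alike, so their reads may not be fully separable, and Alpi is also one of the enterocyte markers above. Enpp7, a relative of Enpp3 that acts on sphingomyelin rather than on nucleotides, had the largest genotype difference of this list in the authors' deposited table, at 2.92 ± 0.16. Entpd7, a nucleoside triphosphatase, stood at 0.63 ± 0.22 in the zone comparison but at -0.49 ± 0.22 in the genotype comparison of the authors' deposited tables. It was also the gene of these lists called higher in labelled-DKO villus than in crypt, at 1.12 ± 0.31. Entpd4, a nucleotidase of the Golgi, was lower there, at -0.98 ± 0.18.

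Among 4 transport genes, the authors' deposited tables called 3 higher in each of the zone and genotype comparisons. Slc28a1, which encodes the pyrimidine-preferring relative of the Slc28a2 transporter, had 1.01 ± 0.12 and 1.88 ± 0.12 in the authors' deposited tables. Its labelled-DKO level was below crypt, at -0.87 ± 0.17. Slc23a4, a nucleobase transporter in rodents, had 0.52 ± 0.10 and 0.91 ± 0.10 in the authors' deposited tables, and the urate transporter gene Slc2a9 had 0.36 ± 0.10 and 0.45 ± 0.10 there. Slc17a4 was not called in either table.

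Genes of purine synthesis were little represented, with 3 of 15 in the tables. Impdh2, which commits inosine monophosphate to guanine nucleotides, was called lower in villus in the zone comparison of the authors' deposited table, at -0.48 ± 0.15. Of the 3 genes, none was called in the genotype comparison of the authors' deposited DESeq2 table. Of 6 genes of pyrimidine breakdown and salvage, the authors' deposited tables called 2 higher and 1 lower in each comparison. Cda, cytidine deaminase, the pyrimidine counterpart of Ada, had 0.80 ± 0.18 over crypt and 2.35 ± 0.18 over labelled-DKO villus in the authors' deposited tables, and -1.55 ± 0.25 for labelled-DKO villus over crypt. Tk1, a thymidine kinase of dividing cells, had -0.68 ± 0.12 and -0.71 ± 0.12 in the authors' deposited tables. Of 3 receptor genes P2ry2, a receptor for extracellular ATP and UTP, was called in the authors' deposited tables, at 0.47 ± 0.16 and 0.60 ± 0.16.

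**Figure D4:**
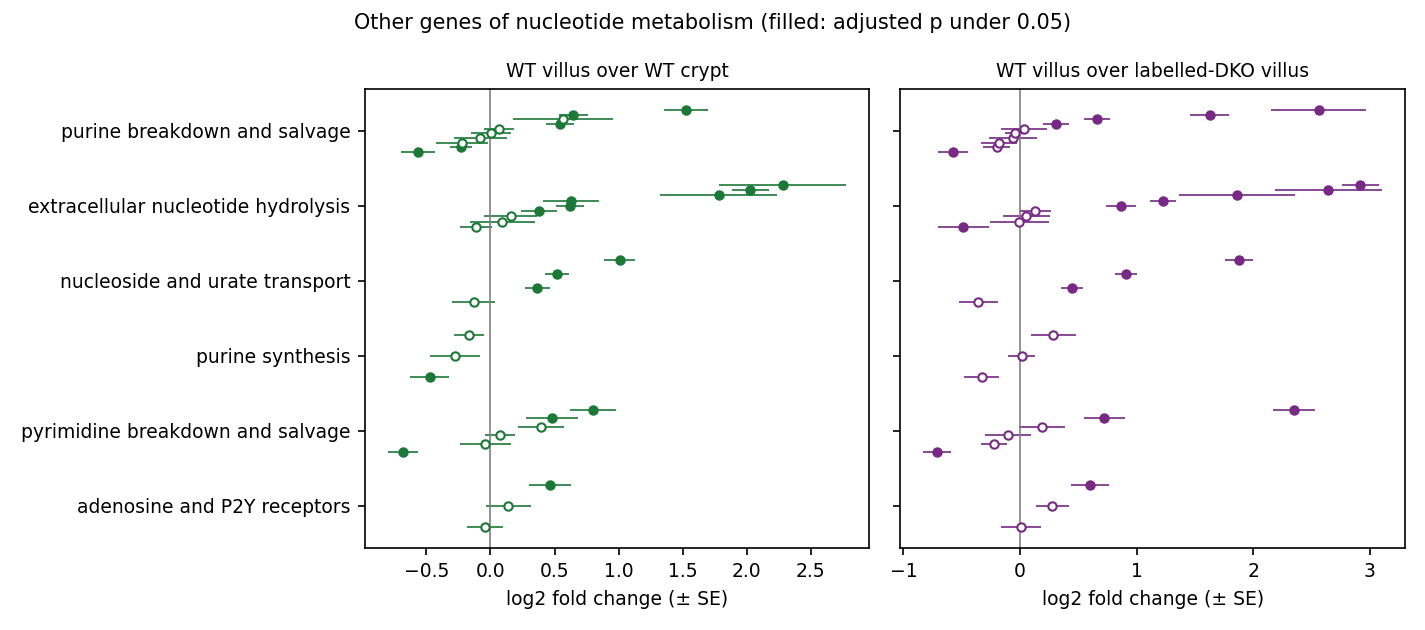
Log2 fold change with 1 SE (x axis) for the other 35 genes of nucleotide metabolism by list (y axis), the zone comparison at left and the genotype comparison at right; filled points had an adjusted p under 0.05. Most filled points of the extracellular hydrolysis and transport lists lie to the right of 0, and the purine synthesis list holds 1 filled point at left and 0 at right.

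The genes whose pattern was most like each member were those with the smallest distance in the plane of both deposited log2 fold changes, a likeness over 3 group levels only. For Ada the nearest was Clec2h, at a distance of 0.35, followed by Gm8909, Apoa4, Crip1 and Btnl6 out to 0.69. With the distance taken in standard errors, Clec2h lay 1.40, Gm8909 1.93 and Apoa4 1.96 from Ada, and Crip1 2.20. Clec2h had 1.78 ± 0.17 over crypt and 4.08 ± 0.18 over labelled-DKO villus in the authors' deposited tables. For Slc28a2 the nearest gene was Gda, at 0.07, then Slc25a5, Nr1d1, Mgam and Rogdi. Pdzk1, Gm7030, Slc25a45, Slc2a5 and Gsdmd lay nearest to Xdh, between 0.01 and 0.09. Cldn15, Muc13, H2-K2, Slc30a2 and Pkig lay nearest to Pnp, all within 0.08. Those nearest to Enpp3 were Mcl1, Slc43a2, H2-L, Mir22hg and Gadd45a, within 0.12, and those nearest to Nt5e were Tnfsf13, Sidt2, Dusp2, Ifit3b and Capn15, within 0.04.

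Positions were read from the deposited windows, in the mm9 build named in the submitters' processing notes. Ada windows spanned chromosome 2 from 163551807 to 163576325 on the minus strand. Slc28a2 lay on the same chromosome from 122266456 to 122286372 on the plus strand. Nt5e was on chromosome 9 from 88222347 to 88266427 (plus) and Enpp3 on chromosome 10 from 24493120 to 24556351 (minus). Pnp was on chromosome 14 from 51563878 to 51572587 (plus) and Xdh on chromosome 17 from 74232735 to 74299886 (minus). Ada and Slc28a2 each had 2 RefSeq transcripts that shared 1 start, and the other members had 1 transcript. Windows of the 6 members overlapped those of 0 other genes on either strand, whereas 41.2% of the genes in the tables had such an overlap. Transcripts without a matched symbol were counted as other genes. The windows differ from whole genes at their ends, so a gene such as Pkig, whose windows end 0.413 kb from those of Ada, may still reach into them.

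Gene body windows were placed differently on each strand. For the plus-strand members Nt5e, Slc28a2 and Pnp the body window began 350 bp downstream of the start and did not touch the promoter window. For the minus-strand members Ada, Enpp3 and Xdh it reached 350 bp upstream of the start and held the whole 402 bp promoter window. The body windows of Ada and Enpp3 were 850 bp longer than the gene in GRCm38 and that of Xdh was 649 bp longer, whereas those of Nt5e and Pnp were 850 bp shorter. The body window of Slc28a2 spanned 19467 bp, against 34796 bp for the gene in GRCm38, whose annotated start lies upstream of the windowed one. Promoter signal therefore enters the body counts of Ada, Enpp3 and Xdh but not those of Nt5e, Slc28a2 and Pnp. Which windows the deposited comparisons were made from is not stated in them, and the part of this placement in the members' values was not tested.

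Genes near the members were read in the same tables. Within 100 kb of a member, 8 other genes were in the tables, 2 near Ada, 1 near Slc28a2 and 5 near Pnp. Of these 8, the authors' deposited tables called 5 higher and 0 lower in WT in the genotype comparison (22.4% and 29.5% of all genes). In the zone comparison they called 1 higher and 1 lower (18.6% and 18.8% of all genes). Pkig, whose windows end 0.413 kb from those of Ada on the opposite strand, had 0.67 ± 0.13 over crypt and 1.69 ± 0.13 over labelled-DKO villus in the authors' deposited tables. Serinc3, 80.6 kb away, had -0.18 ± 0.07 and 1.27 ± 0.07 in the authors' deposited tables. Both thus shared the direction of Ada in the genotype comparison at a smaller size, and they differed in sign over crypt. Ada and Pkig end towards each other. Without strand, signal running past the end of either gene cannot be told from that of the other. Its part in the values of Pkig and of Ada was not tested. Near Pnp, the authors' deposited table called Pnp2, Apex1 (0.49 ± 0.21) and Tep1 (0.26 ± 0.08) higher in WT in the genotype comparison, and Osgep and Pip4p1 were not called. Bambi-ps1, 5.45 kb from Slc28a2, was called in neither table.

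**Figure D5:**
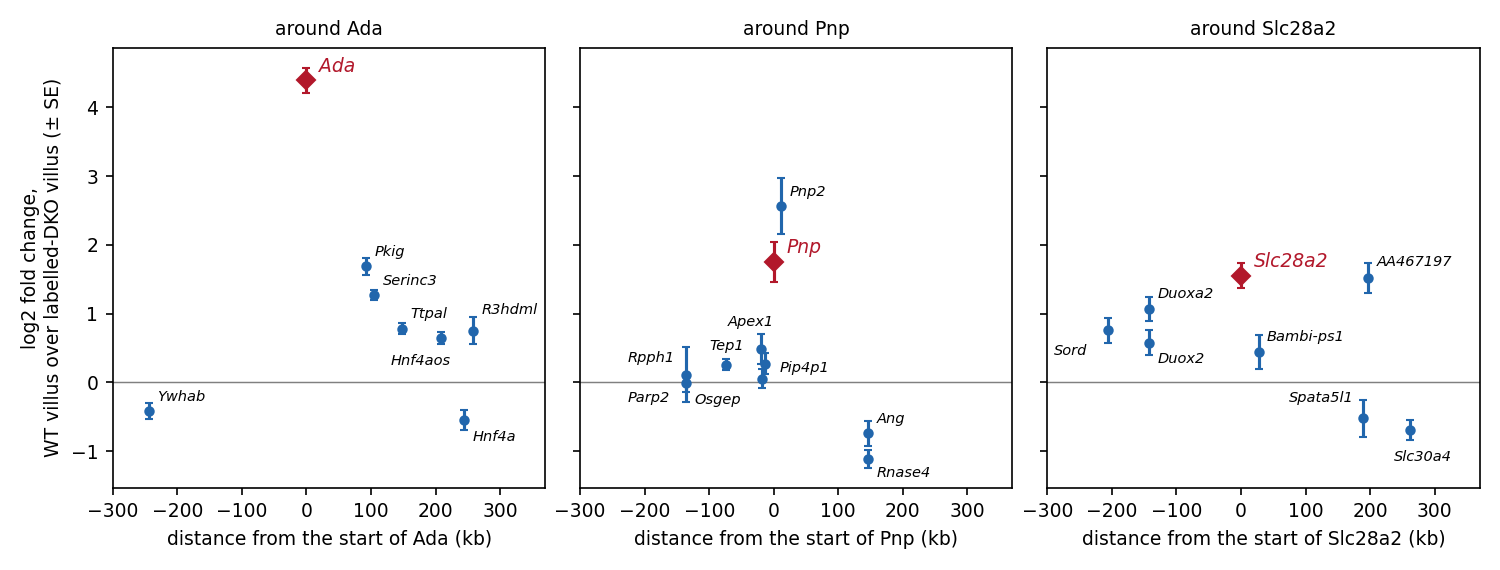
Log2 fold change of the genotype comparison with 1 SE (y axis) for genes in the tables against the distance of their start from that of Ada, Pnp or Slc28a2 in kb, positive in the direction of transcription (x axis). Ada stands above all 7 neighbours drawn, Pnp2 is the highest point around Pnp, and Hnf4a lies below 0 in the Ada panel.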

How the data were processed

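Pol II ChIP-seq of WT villus, WT crypt and DKO villus (3 libraries each per the labels, with 3 inputs) was read from files deposited by the authors. Per the submitters' processing notes the build was mm9, and Bowtie2 2.2.6, SAMtools 0.1.19, Picard, featureCounts and DESeq2 1.36.0 are among the tools named. The authors deposited 2 DESeq2 tables giving, per the file headers, a mean signal over libraries, log2 fold changes with standard errors, Wald scores, and p-values with adjusted p-values. The signal is in size-factor-normalised counts, and the window counted, gene filter and any shrinkage are not stated. The deposited scores equalled fold change over standard error to within 1.78e-07, and adjusted p-values the Benjamini-Hochberg adjustment over 6429 genes to within 3.76e-07. Promoter and gene body windows were counted by the authors with featureCounts 2.0.3, duplicates ignored, mapping quality at least 30, read pairs assigned to every window overlapped and no strand option, per the file headers. These 2 tables name no columns, so their 18 columns of per-library counts matched no sample and were not used, so the depth of single libraries is unknown here. Only window positions were used, and 96.8% of promoter accessions matched a RefSeq symbol (GRCm38.p6 names).

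Group means, labelled-DKO villus over crypt, neighbours, nearest genes and motifs were computed with Python 3.11.15, numpy 2.4.6, pandas 2.3.3 and scipy 1.17.1. Simulated data checked the arithmetic of the rebuilding only. They could not test its assumptions, that the mean covers the 3 groups in equal parts and that fold changes are unshrunken. The text names the members, listed pathway genes, the 5 nearest genes in pattern and genes within 100 kb. Members, lists and rules were chosen with earlier results of these data known. Nothing in the labels says that the libraries came from separate animals, so p-values measure the spread between these libraries.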

Additional observations from a re-analysis of the deposited data

How the results depend on the processing

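The calls of the members depended little on the settings in the deposited comparisons and more in the derived one. Between villus and crypt 5 members were called, and 4 were with a log2 fold change beyond 1 or against changes up to 0.5, both without Nt5e. Between WT and labelled-DKO villus 6 were called, and 5 under those same settings, again without Nt5e. For labelled-DKO villus over crypt, 3 members were called, 1 (Ada) with an adjusted p under 0.01 and 1 (Ada) against changes up to 0.5, 2 with the limit of 1, and 4 with the rebuilt standard error. With an adjusted p under 0.01, the limit of 1 and changes up to 0.5, the shares of all genes called were 27%, 4.43% and 3.92% between villus and crypt, 40.9%, 8.69% and 9.91% between the genotypes, and 8.68%, 3.47% and 1.4% for labelled-DKO villus over crypt. The rebuilt standard error called 29.9% there, against 13.6%. Centring on the median and leaving out overlapping genes changed no member's call. Of 96 member values read again under these settings, 86 stayed on the same side of the limit, 9 lost the call, 1 gained it and 0 reversed. Of 524 values of pathway genes 448 did so, 70 lost the call, 6 gained it and 0 reversed. Apart from centring, the settings alter the threshold, the SE or the set of genes and not the fold change. Reversals could thus scarcely arise, and nothing is read from their absence. Among genes with a mean signal of at least 100, 3 of the 5 nearest genes of Nt5e and of Xdh were the same. No paired analysis was possible because neither deposited table breaks its signal down by library and the count columns carry no replicate numbers. Leave-one-out fits and other normalizations need such values and were not run, so a result carried by 1 library would not be seen here. The depth of single libraries is unknown, so what it limits was not tested.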

Other observations

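The strand difference in the gene body windows was not particular to the members. All 19858 plus-strand transcripts had a body window that began 350 bp downstream of the start, and all 21190 minus-strand transcripts had one that reached 350 bp upstream of it and held the promoter window. A ratio of promoter to gene body counts from these windows would hold promoter reads in its denominator for minus-strand genes only.

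Ada and Hnf4a lie on the same stretch of chromosome 2, with 154 kb between their windows. Genes up to 250 kb from Ada were looked up after the values within 100 kb were seen. The limit of strand given above for Ada and Pkig, which end towards each other, holds here too. Between Ada and Hnf4a, the 3 genes that were tested all had more Pol II in WT villi in the authors' deposited table. Their log2 fold changes were 1.69 ± 0.13 at Pkig, 1.27 ± 0.07 at Serinc3 and 0.78 ± 0.07 at Ttpal, while Hnf4a stood at -0.54 ± 0.14. In this comparison 22.4% of all genes were called higher in WT and 29.5% lower, and an effect of the region was not tested. Hnf4aos, which overlaps Hnf4a, and R3hdml beyond it were again higher in WT in the authors' deposited table, at 0.65 ± 0.09 and 0.75 ± 0.19. On the other side of Ada, Ywhab, at 244 kb, stood at -0.42 ± 0.11 in the authors' deposited table. Over crypt, Pkig was called higher in WT villus at 0.67 ± 0.13, Serinc3 lower at -0.18 ± 0.07, and Ttpal was not called at -0.08 ± 0.07 in the authors' deposited table.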
